A study of Homo sapiens with 9 samples.

Results

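The 10 genes described here encode proteins that transcribe, maintain, stabilize or degrade the RNA and DNA of the mitochondrion: TFAM, POLRMT, TFB1M, TFB2M, TEFM, LRPPRC, SLIRP, POLG, TWNK and PNPT1. They were taken by gene symbol from a table of 78986 genes, and all 10 were found. Expression was measured by RNA-seq in stable HEK293T lines, a human embryonic kidney line, each transduced with lentivirus for WT, G245S or R273H p53 and kept in puromycin, with 3 biological replicates per line. HEK293T cells carry the SV40 large T antigen, which binds p53. Every line, the WT line included, was therefore an overexpression line, and a line without the vector was not analysed here. The study's methods describe selection of transduced cells and name no cloning step. G245S and R273H are substitutions in the DNA-binding domain of p53. The study proposes that such mutants act on RNA and on mitochondria. The comparisons below address whether the mRNAs of the nuclear-encoded machinery of mitochondrial gene expression differed between the lines.

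The mitochondrial genome is read from a few promoters as long transcripts that span many genes. TFAM coats and bends the DNA, recruits the polymerase POLRMT to the promoter and packs the genome into nucleoids, while TFB2M opens the promoter and TEFM keeps the polymerase elongating. LRPPRC and SLIRP form a complex that protects mitochondrial mRNAs and promotes their polyadenylation, PNPT1 degrades mitochondrial RNA, TFB1M methylates the rRNA of the small ribosomal subunit, and POLG and TWNK are the DNA polymerase and the helicase of mtDNA replication. All these proteins are made in the cytosol from nuclear genes and imported.

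Some promoters of these genes carry short motifs of the factors classically tied to mitochondrial biogenesis, NRF1 and the ETS family (which includes GABPA). Of the 10 genes, 9 had a promoter sequence in the RefSeq table used (GRCh38.p14, 250 bases before to 50 after the gene start); TWNK had no entry. The NRF1 letters, GCGCA followed by any base and GCGC, searched on both strands, were present in 5.78% of 35116 promoters and in those of TFAM, POLRMT and TFB1M. The ETS letters CCGGAAG, searched likewise, were present in 10.3% of promoters and in those of POLRMT, TFB1M, TEFM and SLIRP. The NRF1 windows are shown for the 3 transcription and rRNA genes that hold one, and the ETS windows for TEFM and SLIRP, which hold no NRF1 match. The lines below read 5′ to 3′ on the gene's strand with the matched letters in capitals.
TFAM: cgctctcccGCGCCTGCGCcaattccgc
POLRMT: gcggcgcggGCGCATGCGCaggcgcggg
TFB1M: caggacttaGCGCATGCGCtctcagcac
TEFM: cacgcaggaaCCGGAAGtcaatggagga
SLIRP: accctctgatCCGGAAGcagattctctc
The TFAM window is chr10:58385338-58385365 on the plus strand and spans the gene start of the count table. The POLRMT window is chr19:633543-633570 and the TFB1M window chr6:155314598-155314625, both on the minus strand and upstream of the gene. The TEFM window is chr17:30906227-30906254 on the minus strand and spans the start, and the SLIRP window is chr14:77708017-77708044 on the plus strand, upstream. The POLRMT promoter holds a second, overlapping NRF1 match. The YY1 letters AAGATGGC were present in 2.89% of promoters and in that of SLIRP. A p53 half-site was present in 6.63% of promoters and in 0 of these 9, which says only that no such letters lie in these windows. A match is a string of letters, and no binding was measured in these samples.

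The libraries held between 1486315 and 9667306 counts. The shallowest, WT replicate 3, fell under the depth limit of 4096044 counts and was left out of the fits, so that WT was represented by 2 libraries and each mutant by 3. The study also left a WT replicate out of its RNA-seq results, for poor quality and few reads, and did not give its number. WT replicate 3 also stood apart in composition. The summed level of 8 epithelial marker genes was 276 CPM in it and between 73.9 and 87.4 CPM in the other 8 libraries, with KRT19 at 33.7 CPM against at most 1.37 CPM elsewhere. CPM are counts scaled to a common library size with TMM factors. Of the 8 epithelial markers, 4 were under 1 CPM on average over the fitted libraries, so the epithelial label rests mainly on KRT8 and KRT18. The summed level of 8 fibroblast markers was 43.1, 72.8 and 119 CPM in WT, 32.0, 68.5 and 52.6 CPM in G245S and 85.7, 128 and 56.5 CPM in R273H. Replicate 2 was the highest in each mutant line, and R273H replicate 3 lay between the 2 WT libraries fitted. All 6 of these markers tested had a log2 fold change above 0 in R273H against WT (median 0.73). With edgeR, 3 of them had an unadjusted p under 0.05, as did 6.11% of all genes, and 0 passed adjustment. With all 3 WT libraries the median was 0.50 and 0 of 6 had an unadjusted p under 0.05. Of the 5 tested in G245S against WT, 2 were above 0 (median -0.20), and in R273H against G245S all 5 were above 0 (median 0.62). Of those 5, 3 had an unadjusted p under 0.05 between the mutants, as did 4.75% of all genes. The part of these markers in the values of R273H given below was not tested. The summed level of 8 immune markers was at most 3.69 CPM outside WT replicate 3 (14.7 CPM), and that of 8 endothelial markers at most 1.64 CPM outside it (9.83 CPM). In that shallow library 3 counts stand for 2.02 CPM before TMM scaling, so these 2 sums rest on few reads. Large parts of them came from LYZ at 7.02 CPM and ERG at 5.62 CPM. CD3E, CLDN5 and EMCN were at 0 in every library. Values of WT replicate 3 are given beside the others, and in these bulk samples fewer cells of a kind and less RNA per cell cannot be told apart.

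No change of the 10 mRNAs between the lines passed the test. With the quasi-likelihood test of edgeR, adjusted by the Benjamini-Hochberg method, 0 of the 10 had an adjusted p under 0.05 in G245S against WT (0.126% of 15893 genes called), in R273H against WT (0.137% of 16022 genes) or in R273H against G245S (0% of 15614 genes). DESeq2 also called 0 of the 10 in each comparison. At an unadjusted p under 0.05 edgeR gave 1 of 10 in G245S (TFAM, lower), 2 of 10 in R273H (TFAM, lower, and TEFM, higher) and 0 of 10 between the mutants, where 6.66%, 6.11% and 4.75% of all genes met that limit. With WT replicate 3 in the fit, TFAM in G245S was the 1 call left in that comparison (5.81% of genes), and 0 of 10 met the limit in R273H (5.38% of genes). The 20 intervals of 95% for the changes against WT lay between a 0.726-fold and a 1.51-fold level, and with all 3 WT libraries between a 0.680-fold and a 1.45-fold level. Across the 10, the median log2 fold change was 0.01 in G245S and 0.05 in R273H, beside 0.00 over all genes tested in each comparison. The median size of a change, regardless of sign, was 0.06 in G245S and 0.09 in R273H for the 10, and 0.11 and 0.10 for all genes.

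**Figure D1:**
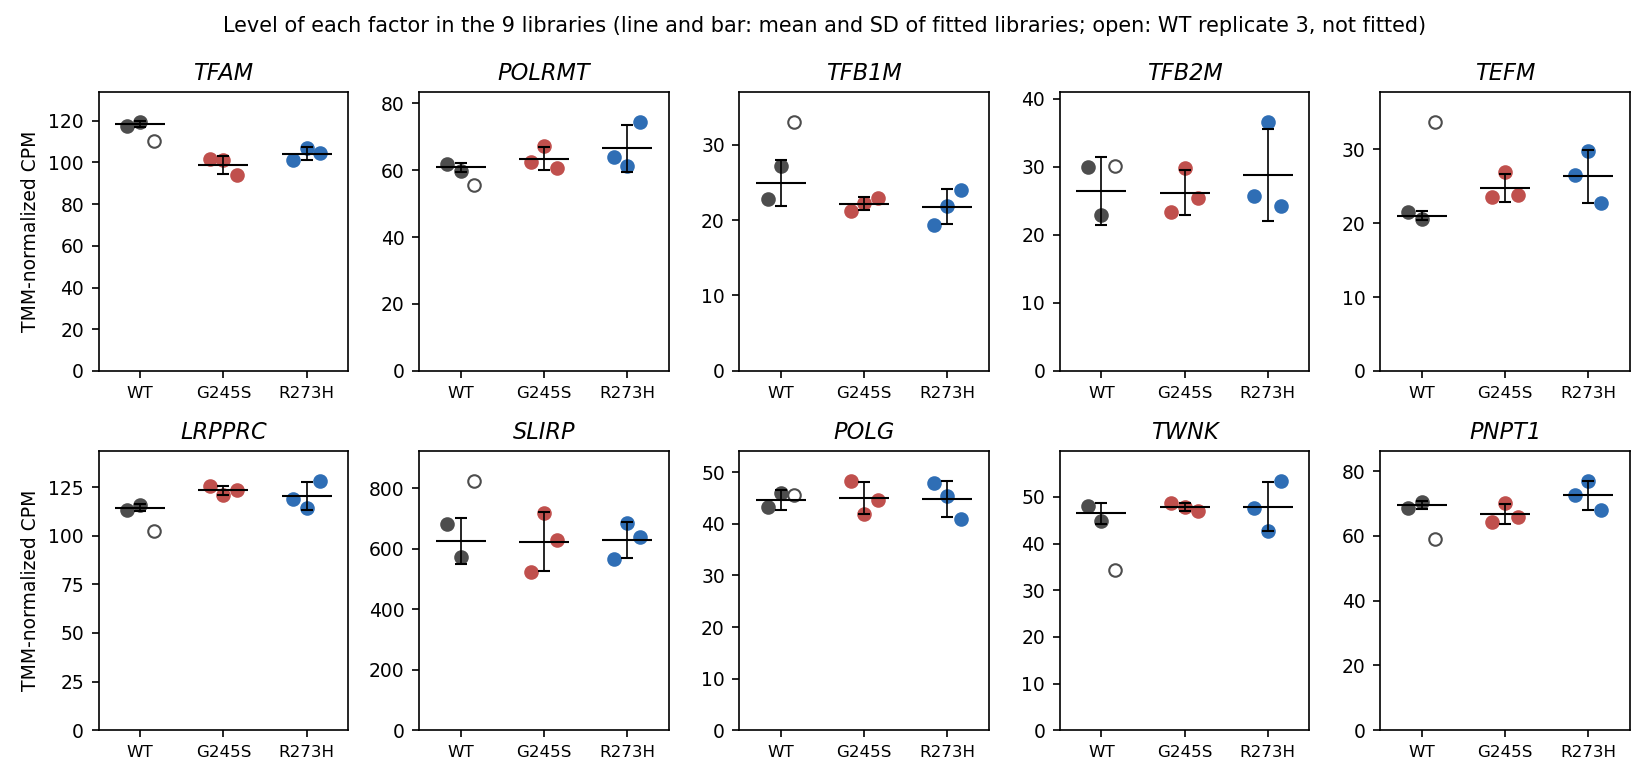
TMM-normalized CPM (vertical axis, from 0) of each gene in the 9 libraries, grouped by line, with the mean and SD of the fitted libraries; the open circle is WT replicate 3, which was not fitted. TFAM is the gene in which all 6 mutant libraries lie below all 3 WT libraries, and TFB1M, TEFM, SLIRP and TWNK are those in which the open circle lies farthest outside the range of the other 8 libraries.

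Among the transcription factors, TFAM was the gene with the clearest separation between WT and mutant libraries. TFAM (ENSG00000108064; GRCh38 chromosome 10, 58385345 to 58399220, plus strand) was at 117 and 119 CPM in the WT libraries fitted and at 110 CPM in WT replicate 3. It was at 102, 101 and 94.0 CPM in the G245S libraries and at 101, 107 and 105 CPM in the R273H libraries. Every mutant library thus lay below every WT library, the shallow one included. TFAM was the only 1 of the 10 genes whose mutant and WT libraries did not overlap when all 3 WT libraries were counted, while 2.29% of 16398 genes were lower and 4.54% separated in either direction in the same way. WT libraries averaged 118 ± 1.45 CPM (SD, n = 2), G245S libraries 98.9 ± 4.24 CPM (SD, n = 3) and R273H libraries 104 ± 2.91 CPM (SD, n = 3). On the log2 scale, TFAM differed from WT by -0.25 in G245S (standard error 0.09, 95% interval -0.44 to -0.07) and by -0.18 in R273H (standard error 0.08, 95% interval -0.36 to -0.004). With all 3 WT libraries in the fit these values were -0.23 (95% interval -0.43 to -0.03) and -0.16 (95% interval -0.36 to 0.03), so that the interval in R273H then included 0. Neither passed adjustment, with edgeR's adjusted p = 0.606 and 0.807, and TFAM ranked 300 of 15893 genes by p in G245S and 902 of 16022 in R273H. With both mutants pooled against WT, a comparison added after the values were seen, edgeR's adjusted p was 0.471. Both comparisons share the same WT libraries, so that they are not independent of each other.

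POLRMT (ENSG00000099821; chromosome 19, 617221 to 633537, minus strand), the polymerase that TFAM recruits, showed no such separation. It was at 61.8, 59.9 and 55.5 CPM in WT replicates 1 to 3, at 62.5, 67.3 and 60.6 CPM in G245S and at 64.0, 61.2 and 74.4 CPM in R273H. The groups overlapped, the highest value being that of R273H replicate 3. Its log2 fold change was 0.07 (standard error 0.09) in G245S and 0.13 (standard error 0.10) in R273H. The ratio of TFAM counts to POLRMT counts was 1.90, 2.00 and 1.99 in the WT libraries and between 1.41 and 1.75 in the 6 mutant libraries, with no overlap. It repeats the separation of TFAM, was looked at after the values of both genes were known, and had no test. Of 5 ratios between partner genes computed, the other 4 (SLIRP to LRPPRC, TFB1M to TFB2M, TEFM to POLRMT and TWNK to POLG) overlapped between WT and mutant libraries.

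TEFM (ENSG00000172171; chromosome 17, 30897336 to 30906238, minus strand), the elongation factor, had the highest fitted fold change of the 10 genes in each mutant against the 2 fitted WT libraries. With WT replicate 3 in the fit it was below LRPPRC in G245S. It was at 21.5 and 20.6 CPM in the WT libraries fitted, at 23.5, 26.9 and 23.9 CPM in G245S and at 26.5, 29.8 and 22.7 CPM in R273H. WT replicate 3 was at 33.7 CPM, above all 8 other libraries. All 6 mutant libraries lay above the 2 WT libraries fitted, as did 4.27% of 16398 genes, but not above WT replicate 3. Against WT, TEFM was higher by a fitted log2 value of 0.24 (standard error 0.11, 95% interval -0.004 to 0.49) in G245S and 0.32 (standard error 0.13, 95% interval 0.05 to 0.59) in R273H, neither past adjustment, with edgeR's adjusted p = 0.754 and 0.747. The level in WT replicate 3 came from 48 counts. The exons of TEFM share 542 bases, 20.5% of its counted length, with a lncRNA on the opposite strand. In the fit with all 3 WT libraries the change of TEFM was 0.12 (95% interval -0.20 to 0.44) in G245S and 0.20 (95% interval -0.13 to 0.54) in R273H, and both intervals included 0.

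TFB2M and TFB1M are paralogs that descend from rRNA methyltransferases, and neither separated the lines. TFB2M (ENSG00000162851; chromosome 1, 246540561 to 246566261, minus strand) was at 30.0, 22.9 and 30.2 CPM in WT, at 23.4, 29.9 and 25.4 CPM in G245S and at 25.7, 36.6 and 24.2 CPM in R273H. It was the most variable of the 10 over the fitted libraries, with a coefficient of variation of 17.0%, and its spread within each line exceeded the differences between lines. Its log2 fold change was -0.01 (standard error 0.14) in G245S and 0.11 (standard error 0.16) in R273H. TFB1M (ENSG00000029639; chromosome 6, 155256134 to 155314493, minus strand) was at 22.7, 27.1 and 33.0 CPM in WT, at 21.2, 22.3 and 22.9 CPM in G245S and at 19.4, 21.9 and 24.0 CPM in R273H. The WT values reached higher than any mutant value, but WT replicate 1 lay among the mutants. For TFB1M the change was -0.16 (standard error 0.12) in G245S and -0.19 (standard error 0.13) in R273H, with edgeR's adjusted p = 0.835 and 0.939. These values turned on the WT libraries: without WT replicate 2 they were -0.038 and -0.067, without WT replicate 1 -0.28 and -0.32, and with all 3 WT libraries -0.24 and -0.26. The exons of TFB1M share 1264 bases, 30.8% of its counted length, with TIAM2 on the opposite strand, and reads were counted by strand. They share 591 bases with a lncRNA on the same strand as TFB1M. That lncRNA held 1 to 27.5 counts per library, against 47 to 211 for TFB1M, and the part of the overlap in the TFB1M count was not tested.

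The plot of log2 fold changes sets the 10 genes side by side in the 3 comparisons.

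**Figure D2:**
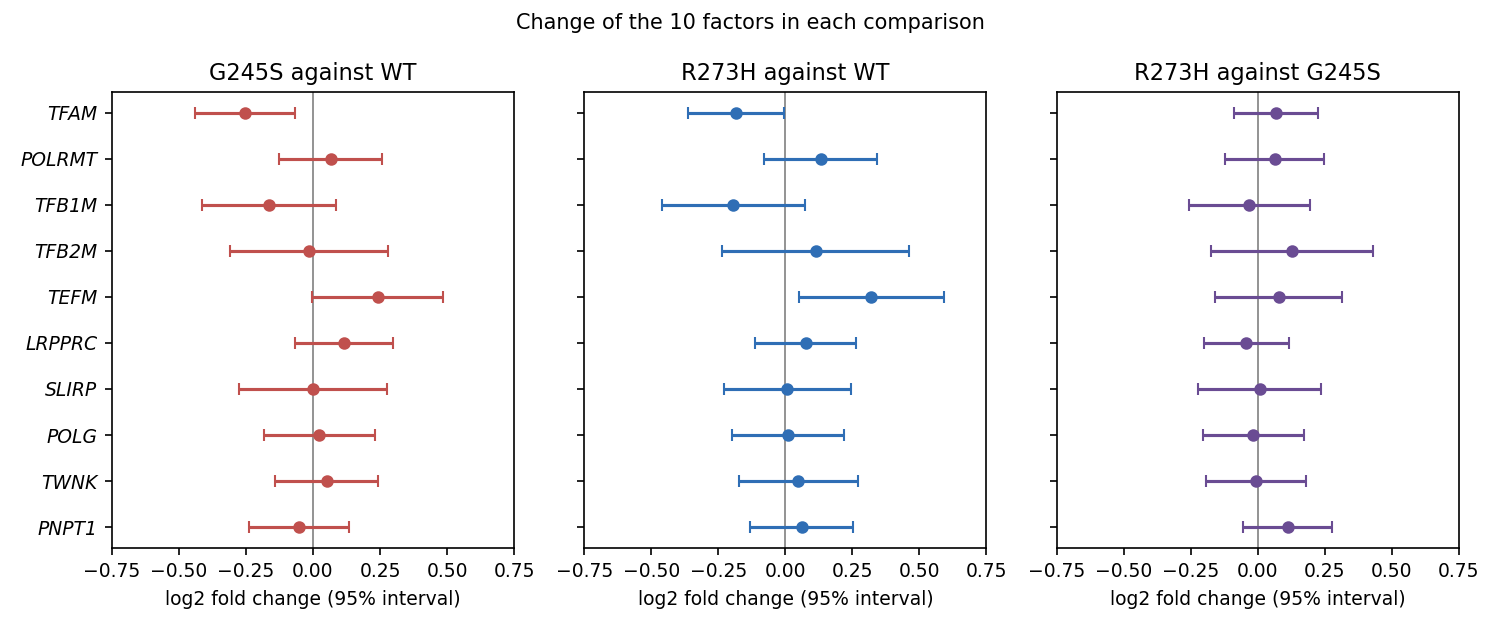
Log2 fold change (horizontal axis; point) and 95% interval (bar) of each gene in G245S against WT, R273H against WT and R273H against G245S, from the quasi-likelihood fit of edgeR. The intervals of TFAM in both mutants and of TEFM in R273H lie on one side of 0 before any adjustment for the number of genes (with WT replicate 3 in the fit, only that of TFAM in G245S does), and all 10 intervals between the mutants include 0.

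LRPPRC and SLIRP, whose proteins form 1 complex, differed in how steady their mRNAs were. LRPPRC (ENSG00000138095; chromosome 2, 43886224 to 43996226, minus strand) was at 113, 116 and 103 CPM in WT, at 126, 121 and 123 CPM in G245S and at 119, 114 and 128 CPM in R273H. It varied least of the 10 over the fitted libraries, with a coefficient of variation of 4.55%. All 3 G245S libraries were above the WT libraries, as were those of 11.2% of genes against the 2 WT libraries fitted, while R273H overlapped WT. Its fitted log2 fold change was 0.12 (standard error 0.09) in G245S and 0.08 (standard error 0.09) in R273H, with edgeR's adjusted p = 0.846 and 0.986. SLIRP (ENSG00000119705; chromosome 14, 77708071 to 77761104, plus strand) was at 680, 572 and 823 CPM in WT, at 524, 718 and 628 CPM in G245S and at 566, 683 and 639 CPM in R273H. The 3 lines overlapped, with means of 626 ± 76.4 CPM (SD, n = 2), 623 ± 96.7 CPM (SD, n = 3) and 629 ± 59.4 CPM (SD, n = 3). Its log2 fold change was 0.00 (95% interval -0.28 to 0.27) in G245S and 0.01 (95% interval -0.23 to 0.24) in R273H. With WT replicate 3 in the fit these values were -0.14 (95% interval -0.47 to 0.18) and -0.13 (95% interval -0.43 to 0.16). The count ratio of SLIRP to LRPPRC ranged from 4.95 to 8.03 in WT and from 4.17 to 5.97 in the mutants.

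Over the 8 fitted libraries, the variation of SLIRP between replicates followed that of other short mRNAs. SLIRP has a canonical transcript of 376 bases. Over 609 genes with canonical transcripts under 1000 bases, the median log2 CPM, relative to each gene's mean over the 8 fitted libraries, was 0.11, -0.06 and 0.05 in WT replicates 1 to 3, -0.13, 0.09 and -0.03 in G245S and -0.07, 0.09 and 0.02 in R273H. SLIRP was lowest and highest in the same libraries as this class among the replicates of both mutants and higher in WT replicate 1 than in WT replicate 2 like the class. In WT replicate 3, which was not fitted, SLIRP was at 0.40 and the class at 0.05. The Pearson correlation was 0.962 over the 8 libraries, given as a description since each library supplies both values and SLIRP belongs to the class. For TFB2M the same correlation was 0.804, for PNPT1 0.478, for TEFM 0.279 and for TFAM 0.263. It was 0.191 for POLRMT, 0.092 for TFB1M, -0.126 for TWNK, -0.457 for LRPPRC and -0.709 for POLG. The canonical transcript has 1306 bases for TEFM, 4549 for PNPT1 and 5025 for TFAM, so these values did not sort by length. The part of transcript length in these values was not tested.

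**Figure D3:**
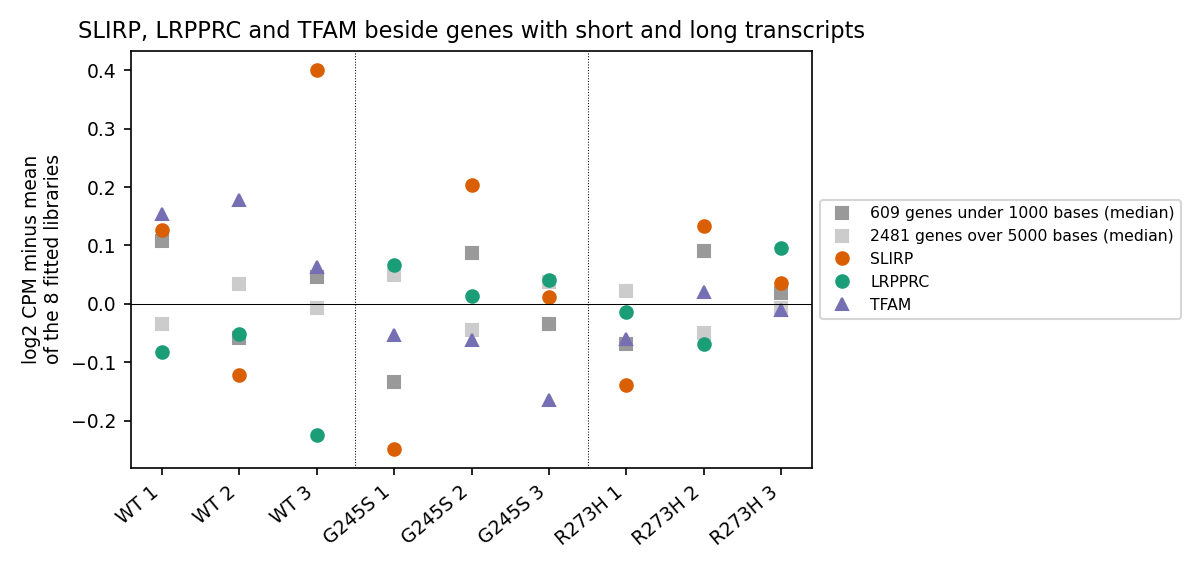
Log2 CPM minus the mean of the 8 fitted libraries (vertical axis) in each of the 9 libraries (horizontal axis) for SLIRP, LRPPRC and TFAM, beside the medians of 609 genes with transcripts under 1000 bases and 2481 genes with transcripts over 5000 bases. SLIRP moves with the short class over the 8 fitted libraries, while TFAM is above 0 in the 3 WT libraries and at or below 0.02 in the 6 mutant libraries.

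The replication genes POLG and TWNK overlapped between the lines. POLG (ENSG00000140521; chromosome 15, 89305198 to 89334861, minus strand) was at 43.2, 46.0 and 45.6 CPM in WT, at 48.3, 42.0 and 44.7 CPM in G245S and at 47.9, 45.5 and 41.0 CPM in R273H. The WT libraries lay inside the range of each mutant. Its log2 fold change was 0.02 (95% interval -0.18 to 0.23) in G245S and 0.01 (95% interval -0.20 to 0.22) in R273H. TWNK (ENSG00000107815; chromosome 10, 100987367 to 100994403, plus strand) was at 48.0 and 44.8 CPM in the WT libraries fitted, at 34.4 CPM in WT replicate 3, at 48.7, 47.9 and 47.0 CPM in G245S and at 47.6, 42.8 and 53.4 CPM in R273H. Its low value in WT replicate 3 rested on 49 counts and lay below all other libraries. Fitted values of TWNK were 0.05 on the log2 scale in both mutants, with 95% intervals of -0.14 to 0.24 in G245S and -0.17 to 0.27 in R273H.

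PNPT1 (ENSG00000138035; chromosome 2, 55634061 to 55693863, minus strand), the RNA-degrading member, was at 68.7, 70.4 and 59.0 CPM in WT, at 64.3, 70.2 and 65.7 CPM in G245S and at 72.7, 76.9 and 67.9 CPM in R273H. It overlapped in all comparisons. Its log2 fold change was -0.05 (standard error 0.09) in G245S, 0.06 (standard error 0.09) in R273H and 0.11 (standard error 0.08) in R273H against G245S, where edgeR's adjusted p was 0.994. Values that are not whole, which come from reads shared between loci, were deposited for PNPT1 in 8 of 9 libraries, for SLIRP in 7 and for TFB1M in 6. How many reads were shared is not given by such values. The 2 processed pseudogenes named after it held at most 3 counts in any library.

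Between the mutants, 0 of the 10 genes passed. Changes in R273H against G245S, on the log2 scale, ranged from -0.04 for LRPPRC to 0.13 for TFB2M, all 10 intervals included 0, and the intervals lay between a 0.837-fold and a 1.35-fold level. The median was 0.04 for the 10 and 0.00 for all genes tested. The 3 G245S and 3 R273H libraries overlapped in all 10 genes, against 9.10% of genes that did not.

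Per kilobase of canonical transcript, SLIRP had the highest value of the 10, at 1666 ± 179 CPM per kilobase (SD over the 8 fitted libraries). TFAM followed at 21.1 ± 1.72, then TEFM at 18.7 ± 2.37, LRPPRC at 18.2 ± 0.826, POLRMT at 17.0 ± 1.28, PNPT1 at 15.3 ± 0.876, TFB2M at 15.3 ± 2.60, TWNK at 13.1 ± 0.850, POLG at 10.0 ± 0.592 and TFB1M at 8.10 ± 0.804 CPM per kilobase. Neighbours in this order overlapped in their range over libraries, apart from SLIRP and TFAM and from TWNK and POLG. The sources used here do not say whether reads covered the whole transcript or mainly its 3′ end. These levels assume coverage along the transcript, and counts taken at the 3′ end would make the level of a short transcript such as SLIRP too high and the order void. The order also depends on the length used: by the merged exon length of the count table, SLIRP was still first, at 238 CPM per kilobase, but LRPPRC, whose merged exons cover 34689 bases, moved to the last place.

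Each gene also had other genes that varied in the same way. Among 9649 genes at a mean of at least 10 CPM, the gene with the highest Pearson correlation over the 8 fitted libraries was RHOQ for TFAM (0.973), EIF4G2 for POLRMT (0.940), AKAP7 for TFB1M (0.941) and PRXL2C for TFB2M (0.981). It was NFS1 for TEFM (0.987), TUBB4A for LRPPRC (0.953), GYG1 for SLIRP (0.984), CACUL1 for POLG (0.945), TBL3 for TWNK (0.987) and CCDC12 for PNPT1 (0.948). With 8 libraries and so many genes such values are a description of these libraries. Among the 10 genes themselves the highest correlation was between POLRMT and TWNK (0.805) and the lowest between SLIRP and POLG (-0.773), while that between LRPPRC and SLIRP was -0.298.

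The wider machinery around the 10 genes was measured in 9 lists with 161 genes tested, and 0 of them passed an adjusted p of 0.05 with edgeR in any of the 3 comparisons, as with DESeq2. Some passed without a filter or with a replicate block, as given in the closing section. Of the 148 nuclear-encoded genes, 8 (5.41%) had an unadjusted p under 0.05 in G245S, 6 (4.05%) in R273H and 3 (2.03%) between the mutants, close to or under the shares over all genes. The genes with the lowest and the highest mean of both changes against WT, among those of each list at a mean of at least 10 CPM, are given with their log2 fold changes. For mtDNA replication and repair, 17 genes, these were FEN1, a flap endonuclease, at -0.25 in G245S and -0.19 in R273H, and TOP1MT, the mitochondrial topoisomerase, at 0.18 and 0.17. For nucleotide supply, 17 genes tested, they were RRM1, the large subunit of ribonucleotide reductase, at -0.26 and -0.23, and SAMHD1, a dNTP hydrolase, at 0.13 and 0.08. RRM2B, the p53-induced small subunit of that reductase, was at -0.09 and -0.03.

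In the RNA lists, the genes named by this rule ran, for the 20 genes of RNA cleavage, decay and polyadenylation, from TRMT10C, a subunit of mitochondrial RNase P, at -0.22 in G245S and -0.05 in R273H, to PTCD1 at 0.15 and 0.19. For the 26 genes of RNA modification they ran from MRM2, an rRNA methyltransferase, at -0.14 and -0.09 to CDK5RAP1, a tRNA-modifying enzyme, at 0.24 and 0.20. The 4 genes of transcription termination held MTERF4 (-0.11 and 0.04) and MTERF3 (-0.04 and 0.01). For the 25 translation factors they ran from MTRFR, a release factor relative, at -0.23 and -0.24 to GFM1, an elongation factor, at 0.26 and 0.20, and for the 22 tRNA synthetases from VARS2 (-0.15 and -0.27) to RARS2 (0.19 and 0.24). Among 17 regulators of mitochondrial biogenesis, SIRT1 was at -0.06 and -0.05 and PPRC1, a coactivator of the PGC-1 family, at 0.22 and 0.15. NRF1 was at -0.04 and -0.04 and GABPA at 0.08 and 0.12. The lowest adjusted p of any of these nuclear lists against WT was 0.656 with edgeR.

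The 13 protein-coding transcripts of the mitochondrial genome itself, which the 10 factors act on, were read in the same libraries. Their summed level was 31698 and 37423 CPM in the WT libraries fitted, 50115 CPM in WT replicate 3, 55882, 47353 and 39294 CPM in G245S and 48325, 37212 and 34277 CPM in R273H. G245S lay above the 2 fitted WT libraries, R273H overlapped them, and WT replicate 3 was above 5 of the 6 mutant libraries. The median log2 fold change was 0.44 in G245S and 0.15 in R273H, 8 of 13 and 1 of 13 had an unadjusted p under 0.05 (6.66% and 6.11% of all genes), all of them higher, and 0 of 13 passed adjustment with edgeR. With all 3 WT libraries the medians were 0.19 and -0.01, and 2 of 13 (1 higher, 1 lower) and 1 of 13 (lower) had an unadjusted p under 0.05 (5.81% and 5.38% of all genes). The 13 are read as parts of a few long transcripts, so they are not separate results. The share of counts on the mitochondrial chromosome ran from 5.55% to 8.34% in G245S. It was 4.47%, 5.71% and 7.02% in WT replicates 1 to 3. MT-CO3, a subunit of cytochrome oxidase, was at 0.60 in G245S and 0.28 in R273H (standard error 0.17 in each). MT-ATP8, a subunit of ATP synthase, was at -0.53 (standard error 0.29) and -0.23 (standard error 0.12). Its G245S libraries, at 211, 171 and 70.6 CPM, overlapped the fitted WT libraries, at 185 and 256 CPM. In the same G245S libraries, the 10 nuclear factors had a median of 0.01.

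**Figure D4:**
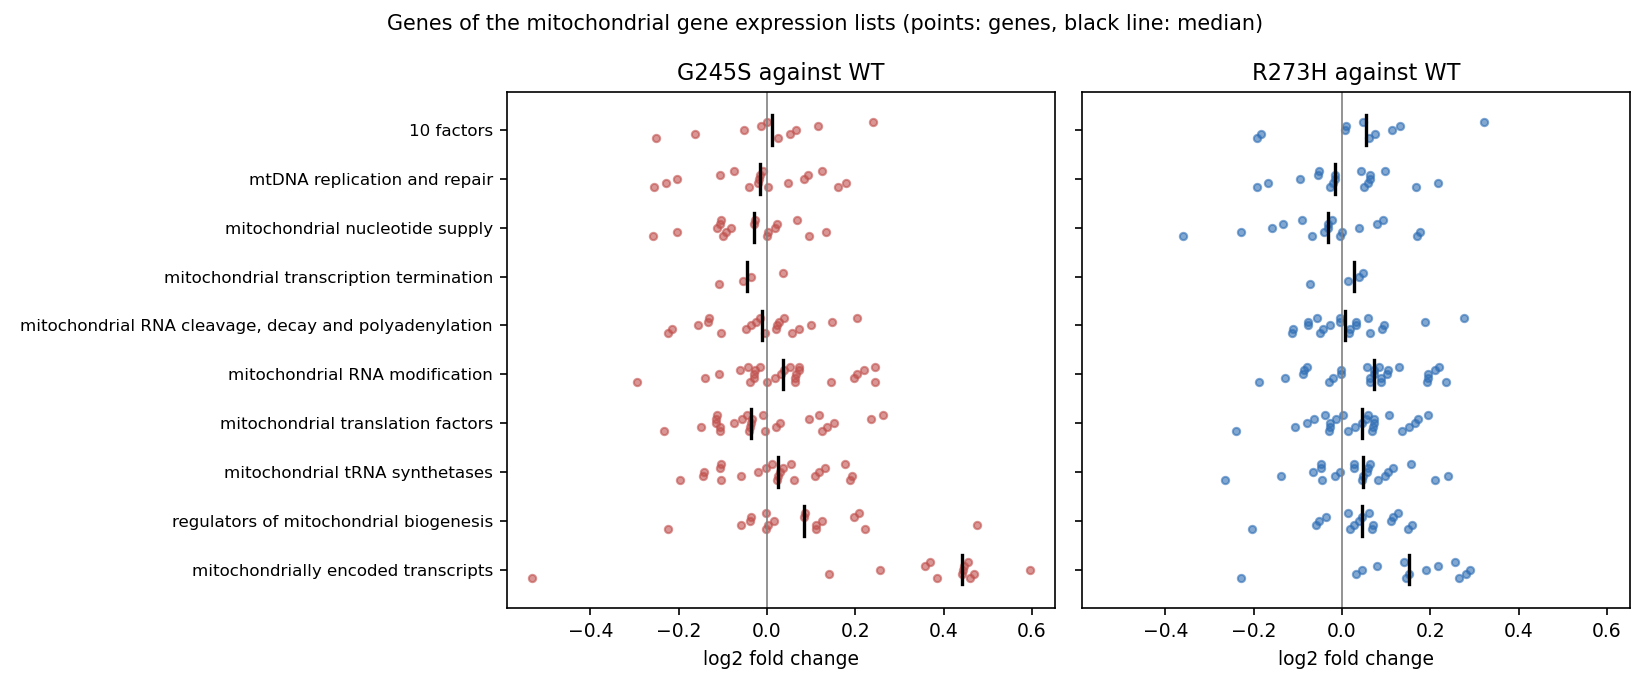
Log2 fold change (horizontal axis) of each tested gene (point) in the 10 factors and the 9 lists around them, in G245S (left) and R273H (right) against WT, with the median of each list as a black line. The medians of the nuclear lists lie between -0.04 and 0.08, and that of the 13 mitochondrially encoded transcripts at 0.44 in G245S and 0.15 in R273H.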

How the data were processed

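RNA from 9 libraries, 3 biological replicates of each line, was sequenced, and the labels name the line both with and without the T of HEK293T. The authors trimmed reads with fastp 0.24.0, aligned them to GRCh38 with STAR 2.7.11, removed duplicates by molecular identifier and counted reads per gene with featureCounts of Subread 2.1.1, by strand and with fractions for multi-mapping reads (tools and versions from the submitters' processing notes and the study's methods). What they deposited were expected counts, not normalized. Another 9 columns of CPM were not used. Fractional sharing could move reads between a gene and its copies.

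Counts were rounded to whole numbers. WT replicate 3 was left out by a rule on depth (under 0.5 times the median total of the other 8 libraries). The 8 fitted libraries held 7325514 to 9667306 counts, and the 10 genes 160 to 5921 counts each. Low genes were removed with filterByExpr, and groups were compared in edgeR 4.0.16 (R 4.3.3) with TMM scaling and its quasi-likelihood test. Benjamini-Hochberg adjustment covered every gene of the comparison, and the threshold was 0.05. Standard errors and 95% intervals are those of the fitted log2 fold change. DESeq2 1.42.0, other scalings, filters, sets of libraries, a joint fit and a replicate block served as alternatives. Tables and plots used Python 3.11.15, pandas 2.3.3, numpy 2.4.6 and matplotlib 3.10.9. Transcript lengths came from GENCODE 44, in which 61463 of the table's gene identifiers were found, all on the same chromosome. The fit was tested on simulated data.

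The 10 genes and the lists were chosen with earlier results of these data known. From each list the genes with the highest and the lowest mean change against WT at a mean of at least 10 CPM are named, besides any gene past the threshold. A planned check is not reported here.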

Additional observations from a re-analysis of the deposited data

How the results depend on the processing

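The count of the 10 factors past the threshold was 0 under every alternative run in the 3 comparisons. TFAM, POLRMT, TFB1M, TEFM and LRPPRC kept the direction of their change against WT in all 17 alternatives, but not always the size. Leaving out 1 replicate gave -0.28 to -0.038 for TFB1M in G245S and -0.32 to -0.067 in R273H. Leaving out a WT replicate leaves 1 WT library, which is then assumed to vary like the mutant libraries. Of 490 alternative values for single factors, 44 had the opposite sign to the main value and 0 passed the threshold. The fits with both mutants pooled are another contrast, the mean of both mutants against WT. Their values are counted under each mutant, so some of the 44 signs belong to that contrast and not to 1 mutant. The cause of the 44 reversals was not tested.

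In G245S against WT, the log2 fold change of TFB2M was 0.011 with a replicate block and that of SLIRP 0.0062 without a filter. Leaving out 1 replicate gave -0.20 to 0.20 for TFB2M, -0.12 to 0.13 for SLIRP and -0.038 to 0.073 for POLG. In the contrast of both mutants pooled against WT, TFB2M was at 0.045. With both pooled against all 3 WT libraries, TFB2M was at 0.018 and PNPT1 at 0.041. In R273H against WT, SLIRP was at -0.13 with all 3 WT libraries and -0.0034 with a replicate block, and TWNK at -0.037 with a replicate block. Leaving out 1 replicate gave -0.085 to 0.33 for TFB2M, -0.11 to 0.14 for SLIRP, -0.046 to 0.072 for POLG and -0.035 to 0.12 for TWNK. In the pooled contrast, SLIRP was at -0.00060 and PNPT1 at -0.00072, and SLIRP was at -0.14 against all 3 WT libraries. In R273H against G245S, SLIRP was at -0.0076 without a filter, POLG at 0.0084 with library size only, and TWNK at 0.0047 with upper-quartile scaling, 0.021 with library size only and 0.0028 in 1 fit of the 3 groups. Leaving out 1 replicate gave -0.023 to 0.12 for POLRMT, -0.11 to 0.049 for TFB1M, -0.073 to 0.24 for TFB2M, -0.015 to 0.18 for TEFM, -0.10 to 0.12 for SLIRP, -0.068 to 0.047 for POLG and -0.088 to 0.066 for TWNK. Pooling both mutants was added after seeing the data.

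The median of the 10 factors in G245S ranged from -0.031 without G245S replicate 2 to 0.10 without WT replicate 1. In R273H it was 0.093 with all 3 WT libraries and 0.078 with library size only, and ranged from 0.0093 without R273H replicate 2 to 0.082 without WT replicate 1. In the contrast of both mutants pooled against WT it was 0.029, and 0.030 against all 3 WT libraries. Between the mutants it ranged from -0.012 without R273H replicate 2 to 0.091 without G245S replicate 2.

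In G245S against WT, 20 of all genes passed, against 10 with all 3 WT libraries, 144 without a filter and 33 with both mutants pooled. With 1 replicate left out, 10 (without G245S replicate 3), 13 (without WT replicate 2) or up to 30 passed. In the contrast of both mutants pooled against WT, 33 passed. In R273H against WT, 22 passed, against 93 without a filter. Between the mutants 0 passed, against 1 with DESeq2, 125 without a filter, and 0 to 3 with 1 replicate left out. Without a filter, 9 of the pathway genes passed in G245S, beside 144 of all genes, and 1 between the mutants, beside 125 of all genes. The number of genes tested without a filter was not recorded, so no share is given.

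Whether the shared replicate numbers pair the libraries was not tested. Correlations of deviations ran from -0.14 to 0.27 for same-numbered libraries and from -0.26 to 0.18 for differently numbered ones. The highest correlation was between replicates 2 of G245S and R273H. Deviations of the 2 fitted WT libraries from their mean mirror each other, so each correlation with WT recurs with the opposite sign. The ranges are partly set by this and cannot decide on pairing. With the replicate number as a block, 76 of 15893 genes passed in G245S, 47 of 16022 in R273H and 59 of 15614 between the mutants. Of the 161 pathway genes, 1, 0 and 7 passed. They were not split into nuclear and mitochondrially encoded genes. The block called 0 of the 10 factors.

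Depth and the 2 fitted WT libraries limit these results. The smallest change able to pass adjustment was not computed.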
